A study of Mus musculus with 19 samples.

Results

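HAC-seq, or hydrazine-aniline cleavage sequencing, is an RNA assay in which hydrazine attacks 3-methylcytidine (m3C) and aniline then breaks the chain, so that a modified molecule yields a read that begins just after the modified base. The deposited table gives, for each cytidine (C site), how many reads cover it, and this read coverage is described here as a measure of how much of each RNA was present in the libraries. Upstream of a cleaved base, coverage also depends on the cleavage. The members are the C sites with a coverage of at least 50 reads in at least 3 of the 7 libraries, 103345 of 118890 distinct sites, and they fall in 5166 genes. The libraries came from neural progenitor cells of the mouse cerebral cortex at embryonic day 17.5, kept on Matrigel with bFGF and EGF at 20 ng per ml each. Of these, 4 libraries came from wild-type cells (WT) and 3 from cells with a conditional knockout of Mettl8 (cKO), and the whole series holds 19 libraries. The labels used here do not name the Cre driver or the floxed exon, and do not say whether replicates are separate animals or cultures, so a p-value here reflects only how far these libraries scatter, which may be technical.

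Mettl8 encodes a methyltransferase that works in mitochondria and places m3C in the anticodon loop of mitochondrial tRNA-Thr (mt-Tt) and of mitochondrial tRNA-Ser for UCN codons (mt-Ts1). Mitochondrial DNA is transcribed as long precursors from both strands, in which tRNAs punctuate the mRNAs and rRNAs and are cut out to release them. Total RNA of a cell is mostly ribosomal RNA, followed by tRNA. The coverage in the table is a different measure. Of the coverage summed over the most covered site of each gene, small nuclear RNA genes held a mean of 44.3% in WT. Cytosolic tRNA genes held 4.38%, the 7 kept nuclear rRNA genes 1.31% and the 2 mitochondrial rRNAs 6.02%. In this sum, reads shared by copies of a gene count once for each copy. These shares are therefore not shares of the RNA of a cell.

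Coverage was divided by a size factor for each library, the median of ratios over the kept sites, and is called scaled coverage. Median unscaled coverage at the kept sites ran from 189 to 265 reads in WT and from 141 to 191 in cKO. Each gene was represented by its kept site of highest mean coverage. The table lists only sites at which more than 1 read began downstream in every WT library, with no such condition on cKO, so the choice of sites is not even-handed between genotypes. Neighbouring sites share reads, and copies of a gene share them too: 9126 kept sites have the same coverages as another kept site in every library. A principal component analysis set cKO replicates 1 and 3 apart from the other 5 libraries, with 40% and 25.5% of the variance on the first 2 components. They were also apart from each other, at 21.3 and -14.9 on the second component. Both differed from the other 5 libraries in Xist, the RNA of the inactive X chromosome. At its most covered site cKO replicates 1 and 3 had 1 read each and cKO replicate 2 had 119. The WT libraries had 159, 174, 121 and 134. What part this difference has in the results below was not tested.

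Mettl8 itself had no kept site. In the series' RNA-seq, made from other libraries (6 WT, 6 cKO), the Mettl8 level was 46.7 ± 10.7 CPM (read counts scaled to library size; SD, n = 6) for WT and 72.5 ± 7.96 (SD, n = 6) for cKO. The log2 fold change was 0.67 with an edgeR adjusted p of 0.265. A count over the whole gene does not tell a transcript with a deleted exon from an intact one, so it does not check the labels. The HAC-seq labels can be checked at mt-Tt, where reads beginning just after nucleotide 29 numbered 2250, 2460, 4000 and 3614 in WT replicates 1 to 4 and 52, 30 and 66 in cKO replicates 1 to 3. All 7 libraries matched their genotype at this site.

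Sites of mt-Tt and mt-Ts1 gained coverage in cKO, and no other RNA passed the test by edgeR apart from a copy of mt-Ts1. Across all sites, edgeR's quasi-likelihood test with Benjamini-Hochberg adjustment called 4 sites higher in cKO at an adjusted p under 0.05, which is 0.00387% of the sites tested, and 0 lower (0.0%). At an unadjusted p under 0.05 there were 6561 higher (6.35%) and 6325 lower (6.12%). The 4 sites were nucleotides 17 and 24 of mt-Tt, nucleotide 29 of mt-Ts1, and a site in Myo3a whose coverages equal those of mt-Ts1 in every library. Over genes, 2 were higher, mt-Ts1 and Myo3a (0.0387% of 5166), and 0 were lower (0.0%), with 393 (7.61%) and 188 (3.64%) at an unadjusted p under 0.05. DESeq2 called more: 358 sites higher and 1204 lower, and 42 genes higher and 12 lower.

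mt-Tt lies on the plus strand of the mitochondrial genome (GRCm38, positions 15289 to 15355), between mt-Cytb and mt-Tp. At nucleotide 24, scaled coverage was 101, 110, 165 and 177 reads in WT replicates 1 to 4 and 2910, 2053 and 2319 in cKO replicates 1 to 3. The groups did not overlap, and the lowest cKO library was far above the highest WT library. The mean rose from 138 ± 38.4 (SD, n = 4) to 2427 ± 438 (SD, n = 3), 17.5-fold, with a log2 fold change of 4.14 ± 0.23 (SE) and an edgeR adjusted p of 0.000109. At nucleotide 17 the scaled coverage was 86.4, 89.1, 142 and 146 reads in WT and 2051, 1587 and 1808 in cKO. The groups were again apart, with a log2 fold change of 3.97 ± 0.22 (SE). An exact two-sided permutation test of the genotype labels, with 35 arrangements, gave p = 0.0286 for both nucleotides, the smallest p that 3 against 4 libraries allow.

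Nucleotide 29 of mt-Tt, the site at which reads begin in WT, did not separate the groups. Its scaled coverage was 1715, 2414, 3804 and 3844 reads in WT and 3257, 2258 and 2595 in cKO. These values overlap, with a log2 fold change of -0.12 ± 0.28 (SE) and an edgeR adjusted p of 0.870. Coverage at this site counts reads that begin just after it together with reads that run through it. The run-through reads alone had a scaled mean of 161 ± 48.7 (SD, n = 4) for WT and 2646 ± 495 (SD, n = 3) for cKO, 16.5-fold higher, a fold close to those of the 2 upstream nucleotides. A read that begins after nucleotide 29 cannot cover nucleotides 17 or 24. The ratio of cKO to WT thus differed between the 3 kept sites of this tRNA.

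mt-Ts1 lies on the minus strand (GRCm38, positions 6870 to 6938), and nucleotide 29 was its only kept site. Scaled coverage there was 343, 318, 403 and 323 reads in WT and 2292, 2074 and 2021 in cKO. The groups did not overlap, as in the plot of coverage at the C sites of these tRNAs. The mean rose from 347 ± 38.6 (SD, n = 4) to 2129 ± 144 (SD, n = 3), 6.14-fold, with a log2 fold change of 2.62 ± 0.14 (SE) and an adjusted p of 7.22e-07 in the gene-level edgeR fit. The exact two-sided permutation p was 0.0286. Few reads began just after this nucleotide: 14, 10, 14 and 4 unscaled reads in WT and 0 in each cKO library. A read that begins further downstream cannot cover it. Whether the amount of this tRNA differed was therefore not tested. Myo3a encodes a myosin of sensory cells, and since its site on chromosome 2 carries the same reads, the table cannot assign them to either gene.

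**Figure D1:**
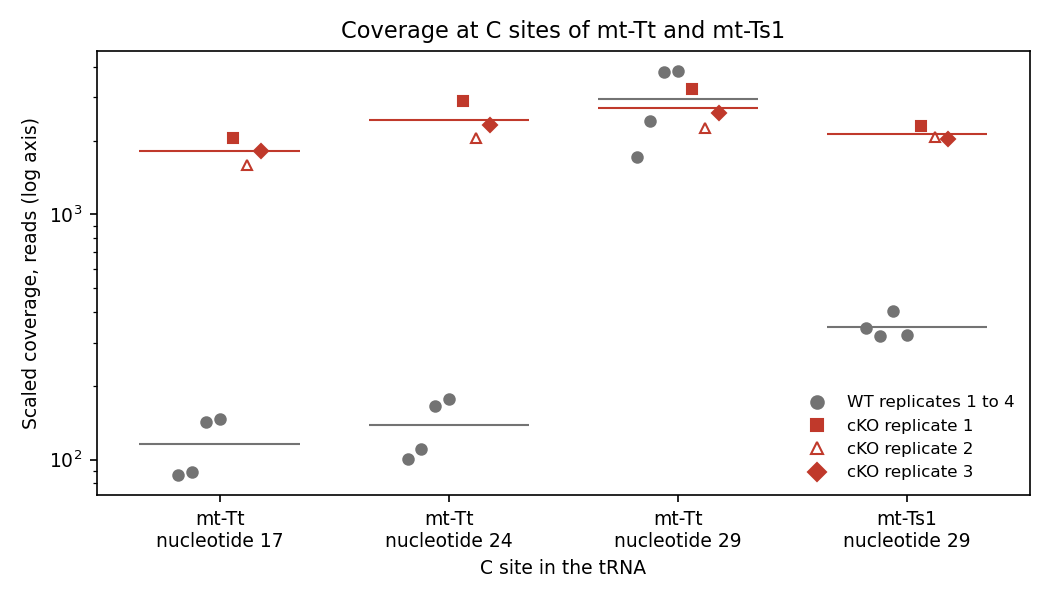
Scaled coverage (reads, log axis) at the 3 kept C sites of mt-Tt and the 1 kept site of mt-Ts1, with 1 point per library and a line at each group's mean. The cKO libraries lie far above the WT libraries at nucleotides 17 and 24 of mt-Tt and at nucleotide 29 of mt-Ts1, and among them at nucleotide 29 of mt-Tt.

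No site of the other mitochondrial tRNAs was called. Of 22 mitochondrial tRNA genes, 18 had a kept site. The 16 genes besides mt-Tt and mt-Ts1 held 69 sites, of which 0 were called and 0 had groups that did not overlap, with log2 fold changes from -0.58 to 0.41 and a median of 0.07. The lowest edgeR adjusted p among them was 0.364. mt-Tw, which carries tryptophan, had the lowest gene-level value, with scaled coverage of 1050, 630, 705 and 543 reads in WT and 611, 472 and 510 in cKO, for a log2 fold change of -0.47 ± 0.21 (SE). mt-Tp, which carries proline and lies next to mt-Tt on the opposite strand, had the highest, 0.40 ± 0.21 (SE). mt-Th, for histidine, was the most covered of the class, at 12700, 17383, 28413 and 26854 reads in WT and 22272, 20615 and 23129 in cKO. WT replicate 1 was lowest in this class, with a median of -0.45 relative to the WT mean on the log2 scale, so the spread within WT exceeded the difference between the groups.

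Mitochondrial mRNAs had less coverage in cKO as a group, though none passed the test. These 13 mRNAs encode subunits of the respiratory chain and ATP synthase. For 11 of the 13, all 3 cKO libraries lay below all 4 WT libraries, against 4.2% of all genes, and the median log2 fold change was -0.58, against 0.05 over all genes. The lowest adjusted p in the class was 0.240 by edgeR's quasi-likelihood test. DESeq2 called 7 of them lower (mt-Cytb, mt-Nd4, mt-Nd4l, mt-Nd5, mt-Nd2, mt-Nd3 and mt-Atp8). Of all 5166 genes it called 12 lower. In bulk libraries, fewer cells of a type and less RNA per cell cannot be told apart.

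At the most covered site of each gene, the 5 lowest values belonged to complex I subunits. This order depended on the choice of site. By the median over all kept sites, mt-Cytb (-0.79) and mt-Atp8 (-0.73) lay below mt-Nd5 (-0.67) and mt-Nd1 (-0.64). mt-Nd4 had scaled coverage of 6171, 5842, 5261 and 7416 reads in WT and 1624, 4043 and 3862 in cKO, for a log2 fold change of -0.96 ± 0.27 (SE; edgeR adjusted p = 0.246). mt-Nd1 had 4781, 4420, 3637 and 5674 reads in WT and 1128, 3264 and 3089 in cKO, for a log2 fold change of -0.89 ± 0.31 (SE). In both genes cKO replicate 1 was far below the other cKO libraries, and these in turn were below WT. mt-Nd4l, mt-Nd5, mt-Nd2 and mt-Nd3 had values of -0.88, -0.82, -0.79 and -0.57.

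mt-Cytb, the complex III subunit encoded just before mt-Tt, had 3906, 3459, 3414 and 4154 reads in WT and 1738, 2752 and 2414 in cKO, for a log2 fold change of -0.70 ± 0.18 (SE). All 266 of its kept sites, which share reads, had cKO below WT in every library, against 6.76% of all sites. Its 5 kept sites nearest to mt-Tt, 39 to 52 nucleotides before the start of the tRNA, had log2 fold changes from -0.80 to -0.60, opposite in sign to the upstream sites of mt-Tt on the same strand. The ATP synthase subunits mt-Atp6 and mt-Atp8 stood at -0.58 and -0.56. Of the plus-strand mRNAs, those of complex IV had the values nearest 0: mt-Co2 had -0.38, mt-Co3 had -0.37, and mt-Co1 had -0.18 with overlapping groups.

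mt-Nd6 is the one mRNA encoded on the other strand, and its coverage did not follow the rest. It had 1198, 1506, 1187 and 1623 reads in WT and 1527, 1375 and 1279 in cKO, for a log2 fold change of 0.02 ± 0.16 (SE). By site, 2306 of the 2317 kept sites in the 12 plus-strand mRNAs had a log2 fold change below 0, against 50.7% of all sites, and 1832 had all cKO libraries below all WT libraries, against 6.76% of all sites. Sites within a transcript share reads, so these counts describe the shape of the coverage and are not independent measurements.

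cKO replicate 1 had the lowest values. Its median over the 12 plus-strand mRNAs was -1.34 relative to the WT mean on the log2 scale, compared with -0.37 and -0.43 for cKO replicates 2 and 3. Without cKO replicate 1, a choice made after seeing the data, 11 of the 12 still had both remaining cKO libraries below WT, against 7.32% of all genes, and their median log2 fold change was -0.43 in place of -0.64. Without cKO replicate 3 it was 12 of 12, against 9.06% of all genes. Leaving out cKO replicate 2 brought mt-Nd5 past the threshold, with a log2 fold change of -1.14 and an edgeR adjusted p of 0.0425. mt-Co1 had 0.02 without cKO replicate 1. Nuclear copies with coverages within 1% of a mitochondrial gene in every library were Gm10925 (mt-Atp6), Gm28661 (mt-Co2), Gm28437 (mt-Co3), Gm28438 (mt-Nd3) and Gm28439 (mt-Nd4), and they repeat the values of those genes.

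**Figure D2:**
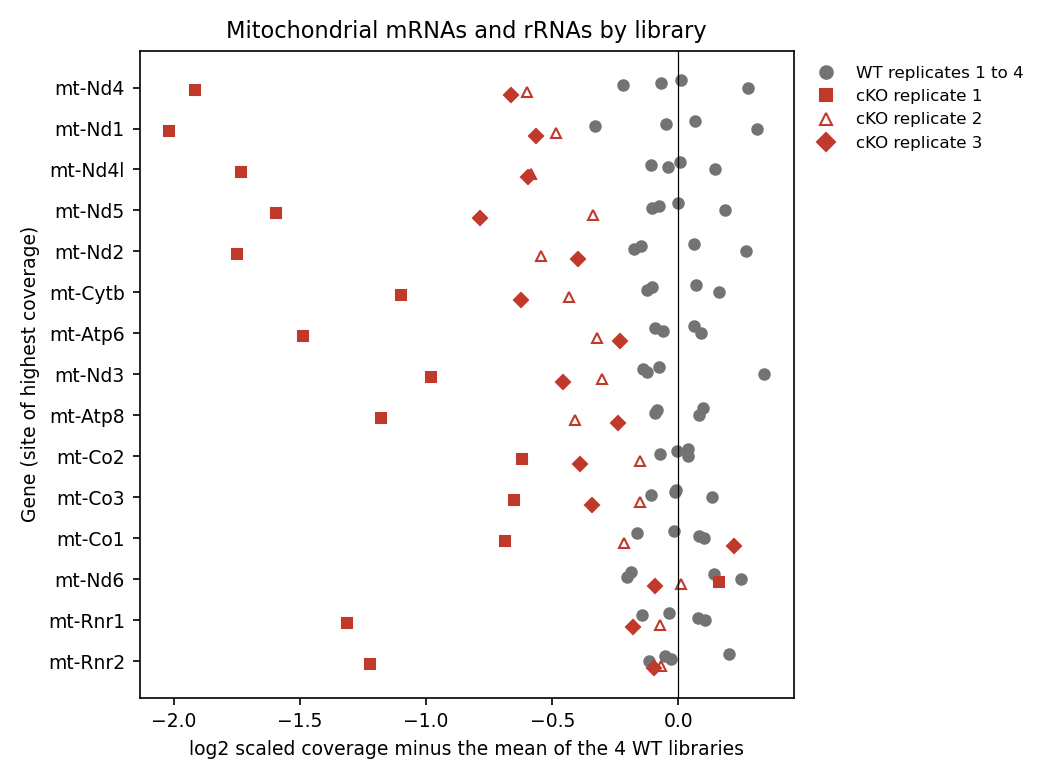
Scaled coverage of the 13 mitochondrial mRNAs and 2 mitochondrial rRNAs at the site of highest coverage, as log2 difference from the mean of the 4 WT libraries, with 1 point per library. For 11 mRNAs all 3 cKO libraries lie left of all WT libraries, with cKO replicate 1 farthest, while mt-Nd6 shows no separation.

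The RNA-seq libraries did not show a difference of this size. mt-Nd4 had 899 ± 118 CPM (SD, n = 6) for WT and 819 ± 141 (SD, n = 6) for cKO, or -0.08 ± 0.06 (SE) as a log2 fold change. mt-Nd1 had -0.06 ± 0.04 (SE) and mt-Cytb had -0.08 ± 0.04 (SE). These come from other samples, and the difference between the 2 assays was not tested.

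The mitochondrial rRNAs differed between libraries and along their length. At its most covered site mt-Rnr1, the 12S rRNA, had 320814, 297298, 346623 and 353666 reads in WT replicates 1 to 4 and 132199, 312479 and 290412 in cKO. Only cKO replicate 1 stood clearly below, and the log2 fold change was -0.43 ± 0.24 (SE) with overlapping groups. mt-Rnr2, the 16S rRNA, had -0.38 ± 0.23 (SE). Taken over sites the picture turned: the median log2 fold change was 0.62 over the 153 sites of mt-Rnr1 and 0.15 over the 241 sites of mt-Rnr2. The median site of mt-Rnr1 had 3391 to 4330 reads in WT, 2394 in cKO replicate 1, 4304 in cKO replicate 2 and 20373 in cKO replicate 3. Thus 1 cKO library was low and another high in the same RNA, and no direction can be given for cKO.

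cKO replicate 3 also stood far above every other library at a set of nuclear genes. At 18 genes (0.348% of 5166) its scaled coverage was over 5 times that of the next highest library, whereas 0 genes met that rule in any of the other 6 libraries. The set held 10 nuclear protein-coding genes, 4 gene copies of 5S rRNA, 3 long non-coding RNAs and 1 pair of overlapping genes. Cmss1 had 5074, 5385, 6798 and 4667 reads in WT and 11623, 5771 and 182844 in cKO. Kcnip1, which encodes a potassium channel regulator, had 3723 to 5869 in WT and 9190, 4816 and 168304 in cKO. Lars2, the mitochondrial leucyl-tRNA synthetase, had 4126 to 5677 in WT and 7873, 4868 and 150845 in cKO. Without cKO replicate 3, a choice made after seeing the data, the log2 fold change of Lars2 went from 3.54 to 0.44 and that of Cmss1 from 3.61 to 0.67.

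Within these genes the sites that met the rule lay close together. In Cmss1, 78 of 116 kept sites met the rule, and they lay within 487 nucleotides. In Lars2 it was 34 of 55 sites within 311 nucleotides, and in Kcnip1 26 of 39 within 313. In RNA-seq, Lars2 had a log2 fold change of -0.18 ± 0.07 (SE; edgeR adjusted p = 0.803). The nuclear rRNA genes moved in the same library: the 4 copies of 5S rRNA, which share their coverages, had 250, 285, 269 and 259 reads in WT and 511, 226 and 9727 in cKO. In CT010467.1, an rRNA gene on chromosome 17, 214 of 341 sites met the rule of 5 times the next library, as did 36 of 153 in mt-Rnr1 and 44 of 241 in mt-Rnr2.

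**Figure D3:**
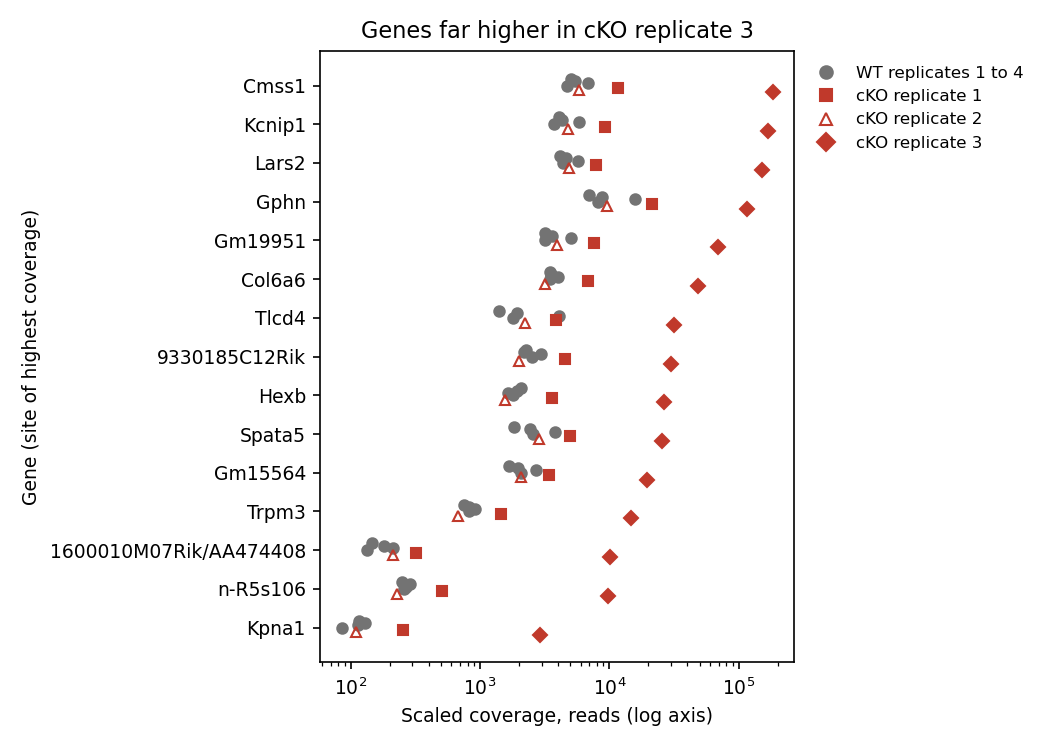
Scaled coverage (reads, log axis) at the genes where cKO replicate 3 exceeded 5 times the next highest library, with 1 point per library and the 4 identical 5S rRNA copies drawn once. cKO replicate 3 lies alone on the right of every row, and cKO replicate 1 is second highest in most rows.

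Among 46 annotated miRNA genes, of which 12 matched the RefSeq table of build GRCm38.p6, 2 are shown that were chosen after their values were seen. They lie on the plus strand at chr9:110281353-110281371 and chr5:114851973-114851998, and are shown because their names stand for short annotated RNAs whose coverage was highest in cKO replicate 3; capitals mark the seed, bases 2 to 8.
mmu-miR-6236: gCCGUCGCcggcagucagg
mmu-miR-6240: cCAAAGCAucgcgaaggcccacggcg
The 2 seeds differ. Mir6236 had 562, 588, 570 and 517 reads in WT and 1185, 666 and 5076 in cKO, and its most covered site lay before the start of the mature sequence. Mir6240 had 206, 243, 357 and 240 reads in WT and 457, 193 and 982 in cKO, at nucleotide 62 of its hairpin, past the end of the mature sequence. Neither measured site lay within the sequence shown, so these values are not levels of the mature miRNAs or their seeds. The log2 fold changes were 2.05 ± 0.49 and 1.07 ± 0.39 (SE), with edgeR adjusted p-values of 0.236 and 0.361.

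Cytosolic tRNAs, which decode mRNA on cytosolic ribosomes, leaned upward without a call. Of 226 genes, 204 had a log2 fold change above 0, compared with 58.3% of all genes, and the class median was 0.22. The cKO libraries were all higher than every WT library for 17 of them, or 7.52%, near the 6.87% of all genes. Without cKO replicate 2, chosen after seeing the data, it was 108 of 226, against 17.9% of all genes. Without cKO replicate 1 or 3 it was 17 of 226, against 11.1% and 10.8% of all genes. The position differed by isoacceptor, the set of tRNAs with 1 anticodon. For tRNA-Asp-GTC, 13 of 14 gene copies had all cKO libraries above WT, and the median was 0.86. tRNA-Asp-GTC-1-1 had 1673, 1971, 2172 and 1597 reads in WT and 3409, 2199 and 4465 in cKO, for a log2 fold change of 0.86 ± 0.22 (SE; edgeR adjusted p = 0.236). cKO replicate 2 lay just above the highest WT library, and cKO replicates 1 and 3 well above it.

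tRNA-Glu-TTC and tRNA-Glu-CTC followed, with medians of 0.66 and 0.63. tRNA-Glu-TTC-1-1 had 9819, 13246, 15294 and 13011 reads in WT and 25547, 13718 and 21562 in cKO, so cKO replicate 2 was inside the WT range. tRNA-Met-CAT, with 3 copies, had the lowest median, -0.17, tRNA-Tyr-GTA followed at -0.10, and tRNA-Gly-GCC, the most covered cytosolic tRNA, had 0.14. The copies of an isoacceptor are near-identical and share reads, so 14 copies are not 14 measurements. DESeq2 called 28 cytosolic tRNA genes higher, all of tRNA-Asp-GTC, tRNA-Glu-TTC or tRNA-Glu-CTC. Of all 5166 genes it called 42 higher. Taking the site of median coverage in place of the highest lowered the median of tRNA-Asp-GTC to 0.26, below tRNA-Glu-TTC at 0.67 and tRNA-Glu-CTC at 0.54, and put tRNA-Tyr-GTA at 0.02. Without cKO replicate 2, edgeR called 13 copies of tRNA-Asp-GTC and 2 of tRNA-Glu-TTC higher, and tRNA-Tyr-GTA had 0.04.

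**Figure D4:**
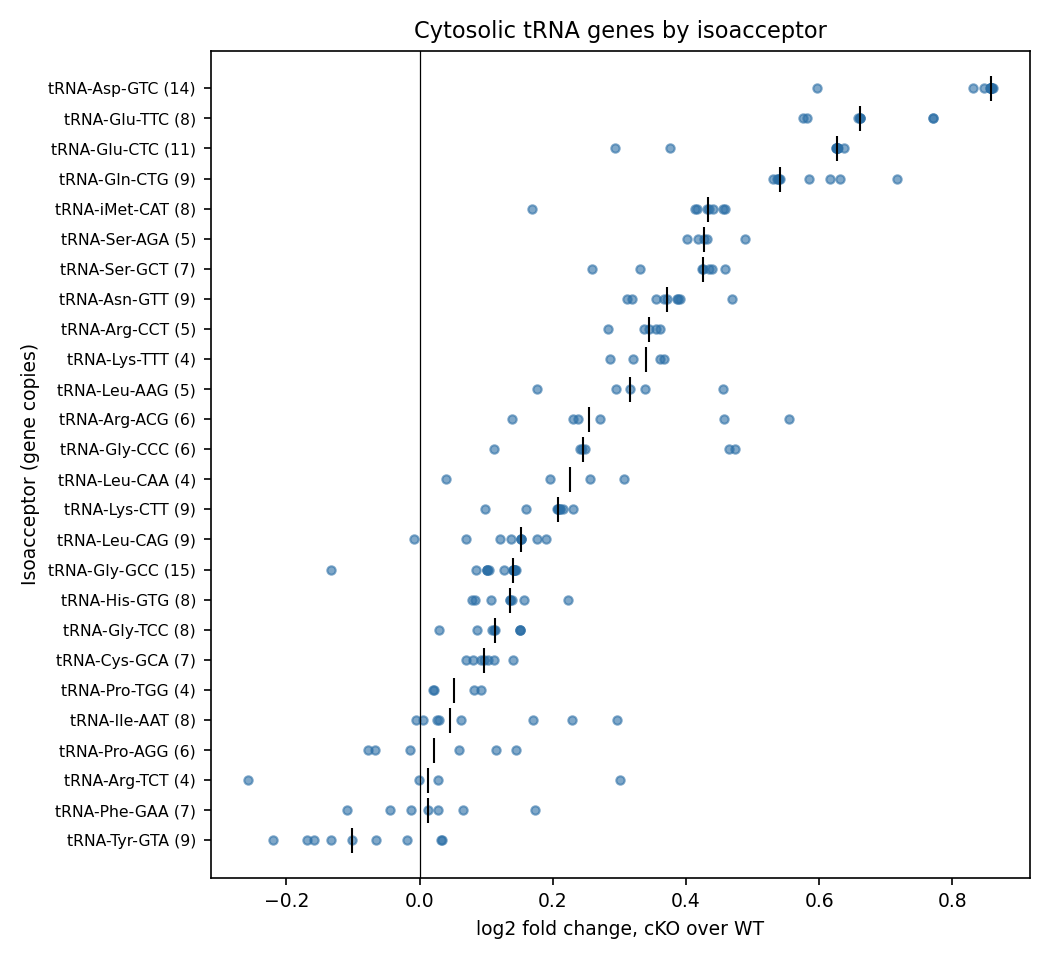
Log2 fold change (cKO over WT) of each cytosolic tRNA gene, 1 point per gene copy, for isoacceptors with at least 4 kept copies; the black tick is the median. tRNA-Asp-GTC lies highest, with a median of 0.86, and tRNA-Tyr-GTA lowest, with -0.10.

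Small nuclear RNAs of the spliceosome showed separated groups more often than genes at large, and small differences. The cKO libraries were all higher than every WT library for 49 of 170 genes, or 28.8%, against 6.87% of all genes, and the median log2 fold change was 0.33. Without cKO replicate 1, a choice made after seeing the data, it was 88 snRNA genes (51.8%), against 11.1% of all genes. Without cKO replicate 2, chosen likewise, it was 86 (50.6%), against 17.9% of all genes. Without cKO replicate 3 it was 49 (28.8%), against 10.8% of all genes, and the median log2 fold change fell to 0.19. 0 of the 170 passed edgeR's adjusted threshold. An unadjusted p under 0.05 was found for 57, all higher, against 7.61% of all genes. DESeq2 called 7 higher, among 42 of all 5166 genes. Gm23928, a copy of a small nuclear RNA gene chosen after its values were seen, had 502, 583, 674 and 438 reads in WT and 1017, 727 and 1101 in cKO, for a log2 fold change of 0.79 ± 0.18 (SE). The most abundant member did not share this: Rnu2-10, a U2 gene, had 345849, 355823, 321783 and 353019 reads in WT and 339774, 351428 and 349605 in cKO, with a log2 fold change of 0.01 ± 0.11 (SE). As a share of summed coverage at one site per gene, the class held 44.3 ± 1.62% (SD, n = 4) for WT and 40.8 ± 5.28% (SD, n = 3) for cKO, where cKO replicate 3 had 34.7%.

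snoRNAs and scaRNAs, which guide modification of rRNA and snRNA, had a median of 0.21 over 260 genes, of which 30 (11.5%) had all cKO libraries above WT, against 6.87% of all genes. The U3 gene Rnu3a had 0.24 ± 0.15 (SE) and Snord118, the U8 snoRNA, had 0.21 ± 0.15 (SE). Of the 18 stable non-coding RNAs listed, 13 were kept and 0 were called. Of the 13, 9 were above 0, against 58.3% of all genes, and the range of the 13 was -0.14 to 0.45. Rn7sk, which holds back the elongation factor P-TEFb, had -0.07 ± 0.13, the Y RNA Rny1 had 0.02 ± 0.14, the signal recognition particle RNA Rn7s1 had 0.10 ± 0.15 and Malat1 had -0.06 ± 0.15 (SE in each case). Rmrp, the RNA of RNase MRP, had 0.31, Rnu12, the U12 snRNA, had 0.28 and Rpph1, the RNA of RNase P, had 0.20. Bc1, a dendritic RNA that represses translation, lies outside that list and was named after its values were seen. It had 313, 272, 343 and 361 reads in WT and 259, 186 and 197 in cKO. All cKO libraries lay below WT, as for 4.2% of all genes. Its log2 fold change was -0.59 ± 0.15 (SE, edgeR adjusted p = 0.236).

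Scaling by total coverage moved the median of all genes from 0.05 to -0.17, and it turned the unadjusted split from 393 higher and 188 lower to 89 and 786. Under it the medians of snoRNAs (-0.02), pseudogenes (-0.11), lncRNAs (-0.13), miRNA genes (-0.08), misc RNAs (-0.09), tRNA-Gly-GCC (-0.06) and ribosomal protein genes (-0.10) fell below 0. Each of these remained above the median of all genes. The medians of snRNAs (0.09), cytosolic tRNAs (0.01) and tRNA-Asp-GTC (0.61) stayed above 0, and that of the mitochondrial mRNAs was -0.81.

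**Figure D5:**
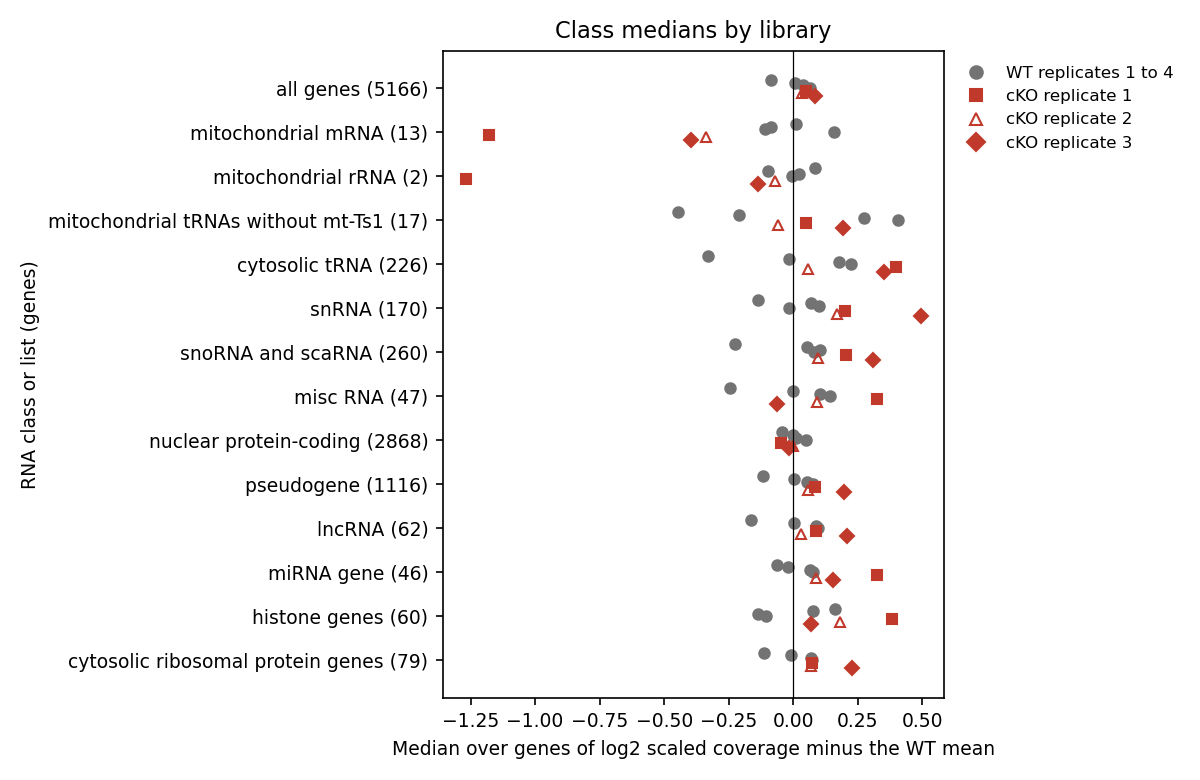
Median over genes of log2 scaled coverage minus the WT mean, for each RNA class or list (number of genes in parentheses), with 1 point per library. Mitochondrial mRNAs lie left of the WT libraries in all 3 cKO libraries, mitochondrial rRNAs clearly so only in cKO replicate 1, and snRNAs lie right of WT; nuclear rRNA genes are not drawn.

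Histone mRNAs, which are made in S phase and end in a stem-loop in place of a poly(A) tail, had separated groups, cKO above WT, at 24 of 60 genes, against 6.87% of all genes. Without cKO replicate 3 it was 38 of 60, against 10.8%. Without cKO replicate 1 or 2 it stayed at 24, against 11.1% and 17.9%. The class medians by library overlapped: relative to the WT mean, cKO replicate 3 had 0.07 and WT replicate 1 had 0.16. The median log2 fold change of the histone genes was 0.24, and over all alternative fits it lay between 0.04, with scaling by total coverage, and 0.32. H3c13 had 1213, 1083, 999.5 and 1074 reads in WT and 1767, 1333 and 1460 in cKO, for a log2 fold change of 0.48 (edgeR adjusted p = 0.283). 0 of the 60 passed the threshold. An unadjusted p under 0.05 was found for 23, all higher, against 7.61% of all genes. Gene copies of 1 histone share reads. Of 79 cytosolic ribosomal protein genes, 63 had a log2 fold change above 0, against 58.3% of all genes, with a median of 0.13. All cKO libraries lay above WT for 9 (11.4%), against 6.87% of all genes. Rps19 had 634, 694, 638 and 553 reads in WT and 885, 765 and 858 in cKO.

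Nuclear protein-coding genes as a class had a median of -0.02 over 2868 genes. All cKO libraries lay above WT for 110 (3.84%, against 6.87% of all genes) and below WT for 173 (6.03%, against 4.2%). Beside Myo3a, the smallest p-values among higher genes were those of Mroh6 and D630003M21Rik, with log2 fold changes of 1.30 ± 0.28 and 1.15 ± 0.26 (SE). Mroh6 had 596, 643, 718 and 383 reads in WT and 1452, 790 and 2076 in cKO. Among lower genes they were those of Dnajb12, Tm4sf1 and F2r. Dnajb12, which encodes a co-chaperone of the endoplasmic reticulum, had 56.4, 61.2, 63.9 and 72.6 reads in WT and 27.7, 39.6 and 34.5 in cKO. Its log2 fold change was -0.89 ± 0.19 (SE), close to the coverage minimum. Every cKO library lay under that minimum and every WT library above it. The Dnajb12 site was therefore kept through its WT coverage alone, and what part this has in its difference was not tested. F2r, the thrombin receptor, had 358, 321, 357 and 363 reads in WT and 162, 272 and 227 in cKO, for a log2 fold change of -0.66 ± 0.16 (SE). Each of these had an edgeR adjusted p of 0.236, so none passed the threshold.

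Progenitor markers were covered in every library. Of 12 neural progenitor markers 8 were kept, with log2 fold changes from -0.20 to 0.19 and 0 called. Nes had 604, 507, 483 and 570 reads in WT and 566, 539 and 498 in cKO, and Fabp7, a radial glia lipid carrier, had 3613 to 3891 in WT and 3508, 4237 and 2983 in cKO. Of 8 neuron markers 1 was kept (Map2), of 6 astrocyte markers 3, and of 7 oligodendrocyte lineage markers 3. Olig1, a transcription factor of that lineage, had all cKO libraries above WT, as had 6.87% of all genes. Its log2 fold change was 0.27 ± 0.15 (SE). None of the 6 microglial, 6 endothelial and mural, or 4 fibroblast markers had a kept site. Of the m3C enzyme list only Sars was kept, a partner of a cytosolic m3C enzyme, at -0.19 ± 0.15 (SE).

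Over 2536 genes measured in both assays, the log2 fold changes of HAC-seq coverage and RNA-seq had a Pearson r of 0.06 and a Spearman rho of 0.09, across genes that are not independent replicates. Of 142 genes lower in HAC-seq at an unadjusted p under 0.05, 92 were below 0 in RNA-seq, where 1262 of the 2536 were. Of 70 higher genes, 31 were above 0 in RNA-seq. RNA-seq itself called 0 of 13105 genes (0.0%) by edgeR, while DESeq2 called 2, and 805 (6.14%) were below 0.05 before adjustment. Dio2, the enzyme that activates thyroid hormone, had a HAC-seq log2 fold change of -0.94 ± 0.33 (SE) and an RNA-seq value of -0.53, and was named after its values were seen.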

How the data were processed

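Reads were handled by the authors with STAR 2.5.2a, Trimmomatic 0.32 and bcl2fastq 2.17.1.14 on build GRCm38.p6, per the submitters' processing notes; how reads were counted is not given in the sources used here. In the HAC-seq table the authors give, per the file headers, counts of all reads at each C site and a signal, the number of reads starting 1 bp downstream; the deposited RNA-seq table holds raw counts per gene. Of 135582 rows, 16692 repeats were dropped. The 7 columns of cleavage ratios were not used.

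Counts were tested in R 4.3.3 with edgeR 4.0.16 (quasi-likelihood, two-sided, Benjamini-Hochberg adjusted p under 0.05), scaled by median of ratios, with genotype as the term; RNA-seq was fitted with library set as a covariate. Scripts were tested on simulated data. Alternatives were TMM, total or protein-coding scaling, DESeq2, limma-voom, other filters and site choices, a covariate of library sample number, a replicate block and leaving out each library. Genes were named by a rule: all mitochondrial genes, the called genes, the most covered of each class, the smallest p-values of classes with a call, and fixed lists. From the histone and ribosomal protein name patterns, replacement histones and kinases were left out. The members and lists were chosen with earlier results of these data known. Of the lists, snoRNA host genes had 3 members kept with a median log2 fold change of 0.16, and imprinted RNAs had 0.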

Additional observations from a re-analysis of the deposited data

Results flagged for a closer look

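Among the 4 WT libraries, 1 value stood apart from the other 3 by Dixon's test in 3 of 124 sets of values, where chance flags about 1 in 20. WT replicate 4 was high for mt-Nd3, at 1796 reads of scaled coverage. WT replicate 2 was low for F2r, at 321 reads. WT replicate 3 was high for Col4a5, at 61.2 reads. Groups of 3 cKO libraries were not tested in this way.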

How the results depend on the processing

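The higher coverage of mt-Tt nucleotides 17 and 24 and of mt-Ts1 nucleotide 29 kept its direction under both other scalings and with any 1 library left out, with log2 differences of 3.88 to 4.13, 4.02 to 4.30 and 2.57 to 2.70 without 1 library and of 3.79, 3.94 and 2.40 when scaled by total coverage; with a library left out the smallest exact permutation p is 0.0667 or 0.1, above the threshold by the design alone. mt-Tt nucleotide 29 had -0.06 in the permutation test, from -0.30 to 0.093 with 1 library left out, and 1.18 for the sum over the gene's sites; as a gene, mt-Tt had 4.13 at the site of median coverage and 4.04 for reads not starting downstream. The number of sites called went to 358 higher and 1204 lower with DESeq2 and was 0 to 1 lower with 1 library left out. The number of genes called went to 42 higher and 12 lower with DESeq2, 1 higher with identical sites counted once, and 3 higher for reads not starting downstream. With 1 library left out it was 2 to 52 higher and 0 to 4 lower: cKO replicate 2 gave 52 and 4, and WT replicate 3 gave 5 higher. The cause was not tested. The share of lncRNAs, 0.60 as a log2 ratio, was -0.065 over all kept sites and 0.20 to 0.81 with 1 library left out, and that of protein-coding genes, 0.34, was 0.035 to 0.48; both were lowest without cKO replicate 3. RNA-seq called 1 gene higher and 1 lower with DESeq2. With the replicate number as a block, 2 RNA-seq genes were called higher, and HAC-seq calls were 4 sites and 2 genes higher, as without it. Correlations of same-numbered libraries were -0.10, 0.11 and 0.14, and those of unlike-numbered libraries ran from -0.29 to 0.247. These values do not show a pairing by number, and so few correlations cannot exclude it. Of 2155 values for 110 named genes, 149 uncalled ones differed in sign from the reported value. Sites near the minimum of 50 reads have the least precise values.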
